A study of Mus musculus with 8 samples.

Results

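Heat shock proteins, their cochaperones and the chaperonins were followed on 8 mouse expression arrays. The members were genes named Hspa, Hspb, Hspd, Hspe, Hsph or Hsp90a with a number, the DNAJA, DNAJB and DNAJC proteins, the CCT subunits with Tcp1, Bag1 to Bag6, and Hsf2, Stip1 and Ahsa1. Hspa5, Dnajb9, Dnajb11 and Dnajc3, chaperones of the endoplasmic reticulum, were left out. This gave 198 probe sets with a single annotated symbol, which stood for 84 of the 18193 genes on the array. Where a gene had several, the one whose log2 signal averaged highest across the 8 arrays stood for it. Members without such a probe set in the annotation were not analysed here.

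The arrays form 4 groups of 2, with and without the X-linked zinc finger transcription factor Zfx. Embryonic stem cells (ESC) were clones, either Zfx-null or carrying the loxP-flanked allele as controls (Zfx-flox), and all were grown without feeder cells in serum replacement with LIF. The hematopoietic stem cells (HSC) came from marrow sorted as Lin- Sca-1+ c-Kit+, a gate that also holds multipotent progenitors. The Zfx-cko mice carried the floxed allele and Mx1-Cre, an interferon-inducible recombinase, and the Zfx-flox littermates carried the floxed allele without Cre. Both kinds of mice received the interferon inducer pI·C, so Cre was present in the Zfx-cko group alone while the injections were shared. Marrow was pooled from 4 to 6 mice and taken 4 days after the last injection, and no age is given. ESC RNA had 1 round of linear amplification and HSC RNA had 2, so amplification and cell type cannot be told apart. Samples were hybridized in duplicate, so both arrays of a group could come from the same RNA, and the p-values then cover array spread alone, which may be technical.

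HSP70 proteins bind unfolded stretches of other proteins and release them in a cycle driven by ATP. J-domain (DNAJ) proteins deliver clients and stimulate the ATP step, while HSP110 and BAG proteins act as nucleotide exchange factors that end it. HSP90 finishes many clients handed over by Stip1, the CCT ring folds actin and tubulin, the Hspd1 and Hspe1 chamber folds proteins inside mitochondria, and small heat shock proteins hold unfolded proteins without ATP. Heat shock factors switch on the inducible members by binding repeats of the bases GAA in their promoters.

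Arrays of a group correlated at 0.980 to 0.987 over all probe sets on the scale log2(signal + 14.2), and the median signal per array was 38.4 to 66.5. The Zfx probe set 1422249_s_at, which also matches the pseudogene Zfa-ps, read 1.32 and 0.878 on the Zfx-null arrays and 285 and 298 on the ESC Zfx-flox arrays. On all 4 HSC arrays it read below the added 14.2 and checks no label there. The other 6 Zfx probe sets do not follow the labels in this way: in Zfx-null ESC 5 of them read higher than in Zfx-flox ESC, by 0.79 to 1.65 on the log2 scale, and the sixth stood at −0.12. Their position relative to the floxed stretch was not examined here, so the loss of Zfx rests on a single probe set in ESC. In HSC no Zfx probe set passed as lower, and 1425972_a_at went against the label, at 1192 and 1209 on the Zfx-cko arrays and 696 and 752 on the Zfx-flox arrays (0.72 ± 0.11, limma adjusted p = 0.0010 over probe sets). Zfx-cko HSC therefore means the arrays labelled so, here and in every direction given for HSC. The pluripotency markers Pou5f1, Nanog, Sox2, Zfp42 and Esrrb summed to 8343 and 8774 in Zfx-null ESC and to 12693 and 12881 in Zfx-flox ESC, against 98.5 to 134 on the HSC arrays. Kit, Cd34, Flt3 and Meis1 summed to 9750 and 9923 in Zfx-cko HSC and to 3049 and 3244 in Zfx-flox HSC.

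Of the 84 members, 74 reached the level needed for a test in ESC and 74 in HSC. A total of 72 were tested in both cell types, Cct6b and Hspb7 in ESC alone, and Dnajb3 and Dnajb14 in HSC alone. The 8 members tested in neither were Hspa1l, Hspa12a, Hspa12b, Hspb3, Hspb9, Dnajb7, Dnajc5g and Cct8l1. Changes are log2 differences of signal + 14.2, given with the standard error of the fit, and adjusted p-values come from limma with Benjamini-Hochberg adjustment over all genes tested, at a threshold of 0.05.

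In Zfx-cko HSC, 38 of the 74 tested members were lower than in Zfx-flox HSC and 7 were higher. Among all 12533 genes tested, 19.8% were lower and 22.6% were higher, 42.4% in either direction. The median change of the members was −0.32, against 0.03 for all genes tested. Fitted changes were negative for 50 of the 74 members, and the arrays of the groups did not overlap for 44 lower and 20 higher members, against 33.4% and 39.0% of all genes. In Zfx-null ESC, 8 of 74 members were higher than in Zfx-flox ESC and 7 were lower, where 15.7% and 14.9% of all 12676 genes tested were called in these directions and 30.6% in either. There the median change was −0.03, as for all genes, and 20 members were higher and 26 lower with no overlap of the arrays, against 30.1% and 34.3% of all genes. The members' calls thus lay on the lower side in HSC.

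**Figure D1:**
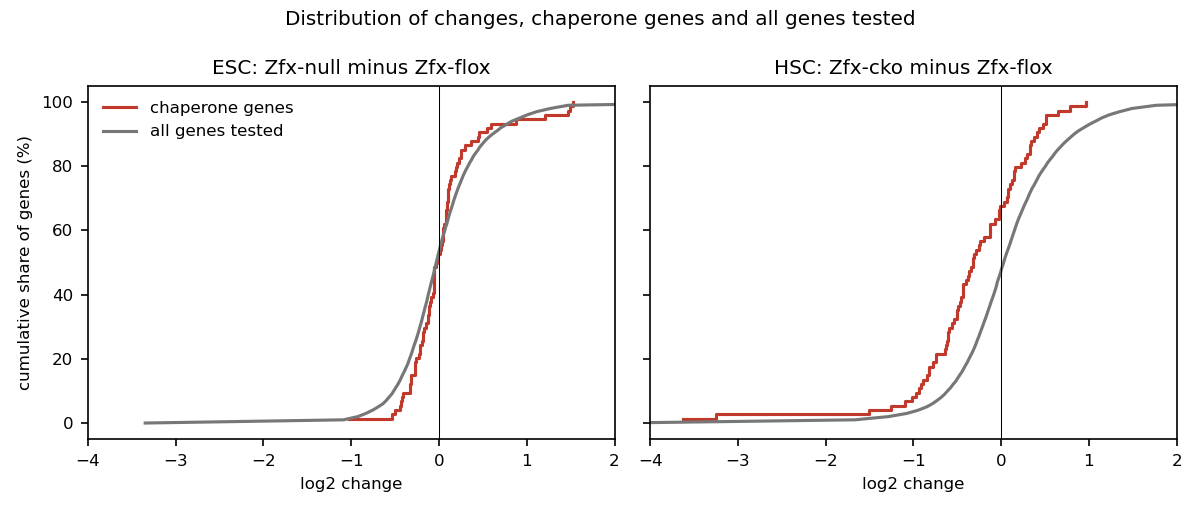
Cumulative share of genes (vertical axis, %) by log2 change (horizontal axis) for the tested chaperone genes (red, 74 in each panel) and for all genes tested (grey), in ESC (left, Zfx-null minus Zfx-flox) and HSC (right, Zfx-cko minus Zfx-flox). In HSC the red curve lies left of the grey one over most of its length, with medians of −0.32 and 0.03, and in ESC the curves cross near 0.

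**Figure D2:**
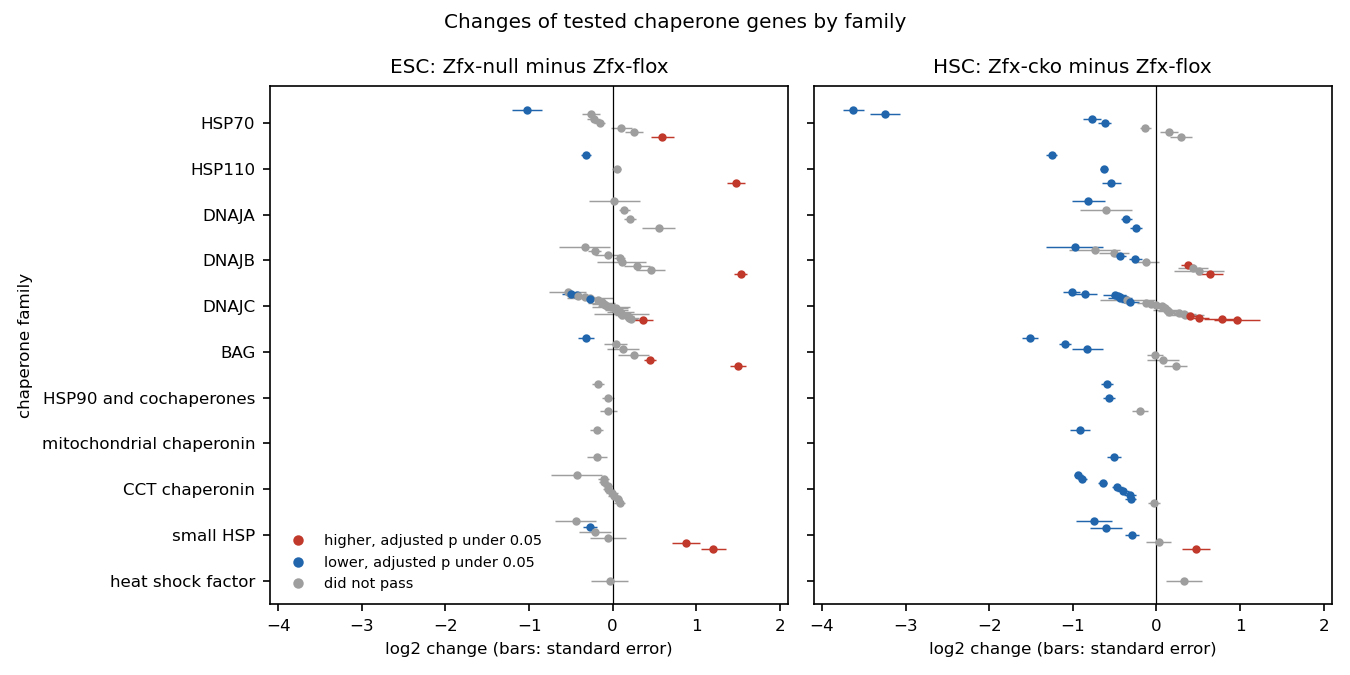
Log2 change (horizontal axis, bars are standard errors) of each tested member by family, in ESC (left) and HSC (right). Red and blue points passed the test as higher and lower. All points of the HSP110, DNAJA, HSP90 and cochaperones, mitochondrial chaperonin and CCT rows lie left of 0 in HSC, and 2 HSP70 genes lie beyond −3.

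The stress-inducible cytosolic HSP70 genes Hspa1a and Hspa1b had the lowest changes of all members in HSC. Hspa1b read 269 and 297 on the Zfx-cko arrays, against 3475 and 3834 on the Zfx-flox arrays. Hspa1a read 17.6 and 21.4 on the Zfx-cko arrays and 292 and 320 on the Zfx-flox arrays. The groups lay far apart for both genes, and the Zfx-cko signal of Hspa1a was close to the added 14.2, so its fitted change understates the ratio of the signals. The log2 change was −3.63 ± 0.12 for Hspa1b (SE, adjusted p = 1.5e-06) and −3.25 ± 0.18 for Hspa1a (adjusted p = 5.2e-06), the 3rd and 9th lowest of all 12533 genes tested. The other Hspa1b probe sets, 1427127_x_at and 1427126_at, changed by −2.96 and −2.34. The genes are near-identical copies, so their probe sets may share signal and the changes cannot be assigned to either gene with certainty.

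Their promoters, from the RefSeq table of the build GRCm38.p6, are shown because both copies fell together, beside those of Hspe1 and Dnaja4, which fell as well and carry more matches to the heat shock element. Each stretch covers the 200 bases before the annotated start, 5′ to 3′ in the direction of the gene. Capitals mark GAANNTTC, its longer form with NNGAA directly after it, on either strand, and AGGCCT, the core of sites bound by Zfx. Hspa1a lies at chr17:34972157-34972356 (minus strand), Hspa1b at chr17:34959239-34959438 (minus strand), Hspe1 at chr1:55087948-55088147 (plus strand) and Dnaja4 at chr9:54699359-54699558 (plus strand).
Hspa1a: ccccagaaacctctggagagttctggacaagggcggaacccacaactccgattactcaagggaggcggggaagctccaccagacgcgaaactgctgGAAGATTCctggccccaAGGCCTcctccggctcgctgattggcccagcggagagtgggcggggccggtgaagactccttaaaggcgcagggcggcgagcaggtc
Hspa1b: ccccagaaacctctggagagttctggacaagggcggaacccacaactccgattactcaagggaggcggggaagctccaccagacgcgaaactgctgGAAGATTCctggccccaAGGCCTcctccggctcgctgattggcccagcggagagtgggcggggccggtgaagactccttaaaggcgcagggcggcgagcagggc
Hspe1: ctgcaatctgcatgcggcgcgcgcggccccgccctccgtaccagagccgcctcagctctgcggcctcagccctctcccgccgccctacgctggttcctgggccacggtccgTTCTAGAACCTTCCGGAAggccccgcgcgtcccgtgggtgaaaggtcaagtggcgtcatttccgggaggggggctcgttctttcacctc
Dnaja4: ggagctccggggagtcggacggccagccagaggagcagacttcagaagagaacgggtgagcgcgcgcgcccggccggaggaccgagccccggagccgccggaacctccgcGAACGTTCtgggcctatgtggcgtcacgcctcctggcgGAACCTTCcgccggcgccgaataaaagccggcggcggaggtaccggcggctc
The Hspa1a and Hspa1b stretches differed at 1 of 200 bases, and each held GAAGATTC at −104 and AGGCCT at −87 from the start.

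A promoter window from 250 bases before to 50 after the start was listed for 69 of the 84 members, in 89 windows. GAANNTTC was found in 21.3% of these windows, against 7.86% of all 32851 windows in the table. By gene, 17 of the 69 held it, among them 12 of the 35 genes that were lower in Zfx-cko HSC. Of the rest with GAANNTTC, Hspb8 rose in Zfx-cko HSC (0.47), Dnajc27 did not pass, and Cct8l1, Dnajc5g and Hspb3 were not tested. The tally was 10 genes with 7 lower for AGGCCT and 26 genes with 14 lower for CCAAT, 2 further motifs searched on both strands. The longer form, GAANNTTC with NNGAA directly after it, searched on both strands and overlapping the short form, was in 6.74% of member windows and 0.603% of all windows. It was found for 4 members, Hspd1, Hspe1, Hsph1 and Dnajb6, and all 4 were lower in Zfx-cko HSC. In Hspe1 and Hspd1 it is the same stretch, since their windows overlap by 285 bases on opposite strands. In Hsph1 it reads TTCTGGAAAGTTC and begins 16 or 37 bases after the start, depending on the transcript. AGGCCT was in 11.2% of member windows and 10.3% of all, and CCAAT in 34.8% and 37.4%. A match is a description of the letters and not a bound site.

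The other HSP70 genes moved less. Hspa9, the mitochondrial HSP70, read 2805 and 2817 in Zfx-cko HSC against 4848 and 4772 in Zfx-flox HSC, a change of −0.77 ± 0.11 (adjusted p = 0.00057), and its probe sets 1418504_at and 1447728_x_at changed by −1.19 and −1.78. Hspa14, an HSP70 that works at the ribosome, fell by 0.62 ± 0.08 on the log2 scale (adjusted p = 0.00033). Hspa8, the constitutive cytosolic HSP70, did not pass at −0.13 ± 0.07 (adjusted p = 0.15). Its probe sets disagreed: 1420622_a_at and 1420623_x_at changed by −0.66 and −0.42 and passed, and 1431182_at passed at 0.27 in the opposite direction. Hspa2, best known from male germ cells, and Hspa13 had changes of 0.29 and 0.15 that did not pass. In all, 4 of the 7 tested HSP70 genes fell in HSC and none of them rose, against 19.8% lower and 22.6% higher among all genes tested. With so few genes, the share of a family is coarse.

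All 3 HSP110 genes fell in Zfx-cko HSC, where 19.8% of all genes tested were lower and 42.4% were called in either direction. Hsph1, which is itself heat-inducible, read 1485 and 1416 on the Zfx-cko arrays and 3416 and 3531 on the Zfx-flox arrays. The change was −1.25 ± 0.06 (adjusted p = 4.1e-06), and its other probe set changed by −1.37. Hspa4 read 2270 and 2278 against 3522 and 3533 (−0.63 ± 0.05, adjusted p = 2.8e-05). Hspa4l, named for its likeness to Hspa4, read 215 and 231 in Zfx-cko HSC and 335 and 326 in Zfx-flox HSC (−0.54 ± 0.11, adjusted p = 0.0047). For each of the 3 genes the duplicate arrays lay close together and the groups did not overlap. The Hspa4 call ended with the mean of its probe sets, at −0.09.

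Among the BAG genes, 3 of 6 fell in HSC and none rose. Of all genes tested, 19.8% were lower and 42.4% were called in either direction. Bag2, which inhibits the ubiquitin ligase that pairs with HSP70, read 212 and 205 on the Zfx-cko arrays against 658 and 582 on the Zfx-flox arrays (−1.51 ± 0.10, adjusted p = 9.7e-06). Bag1, an exchange factor with links to the proteasome, read 654 and 637 against 1419 and 1367 (−1.09 ± 0.07, adjusted p = 1.0e-05). Bag3, the heat-inducible member that works with Hspb8 in autophagy, read 44.3 and 52.1 against 93.7 and 99.0 (−0.83 ± 0.18, adjusted p = 0.0069). Bag4, Bag5 and Bag6 had changes between −0.02 and 0.23 that did not pass.

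Nearly all chaperonin genes fell in Zfx-cko HSC. Of the CCT ring, 7 of 8 tested genes were lower and Cct4 did not pass. Of all genes tested, 19.8% were lower and 42.4% were called in either direction. Cct8 read 1834 and 1917 on the Zfx-cko arrays and 3622 and 3558 on the Zfx-flox arrays (−0.93 ± 0.06, adjusted p = 7.0e-06). Cct6a read 3486 and 3619 against 6535 and 6622 (−0.89 ± 0.05, adjusted p = 7.0e-06), and its other probe set changed by −0.99. These subunits belong to a single complex, but their changes were unequal in size.

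Cct5 read 4239 and 4142 in Zfx-cko HSC and 6452 and 6666 in Zfx-flox HSC (−0.64 ± 0.06, adjusted p = 6.1e-05). Tcp1, the ring's founding subunit, read 5269 and 5394 against 7251 and 7493 (−0.47 ± 0.07, adjusted p = 0.00059), and Cct7 fell by 0.40 ± 0.07. Cct2 and Cct3 fell by 0.32 and 0.31, and the Cct2 call ended without Zfx-cko array 2 or Zfx-flox array 2, at −0.21 to −0.30. Cct4 read 10179 and 9743 against 10006 and 10314 (−0.03 ± 0.07, adjusted p = 0.78). Its probe sets 1415867_at and 1430034_at passed as lower, at −0.23 and −0.68, so the single exception in the ring depends on the probe set. Probe sets of Cct3 differed too: of 6 others tested, 2 passed as lower and 4 did not pass. The Cct8 change ranged from −1.03 to −0.44 over the alternatives, and its call was kept. Cct8l1, a CCT8-like gene, was too dim for a test in either cell type, and Cct6b, the testis form of Cct6a, was too dim in HSC.

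The mitochondrial chaperonin fell with its lid. Hspd1 (HSP60) read 4506 and 5721 on the Zfx-cko arrays and 9525 and 9681 on the Zfx-flox arrays (−0.92 ± 0.12, adjusted p = 0.00037). Hspe1 (HSP10) read 3645 and 3797 on the Zfx-cko arrays against 4857 and 5742 on the Zfx-flox arrays (−0.50 ± 0.08, adjusted p = 0.0013). The groups did not overlap for either gene.

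**Figure D3:**
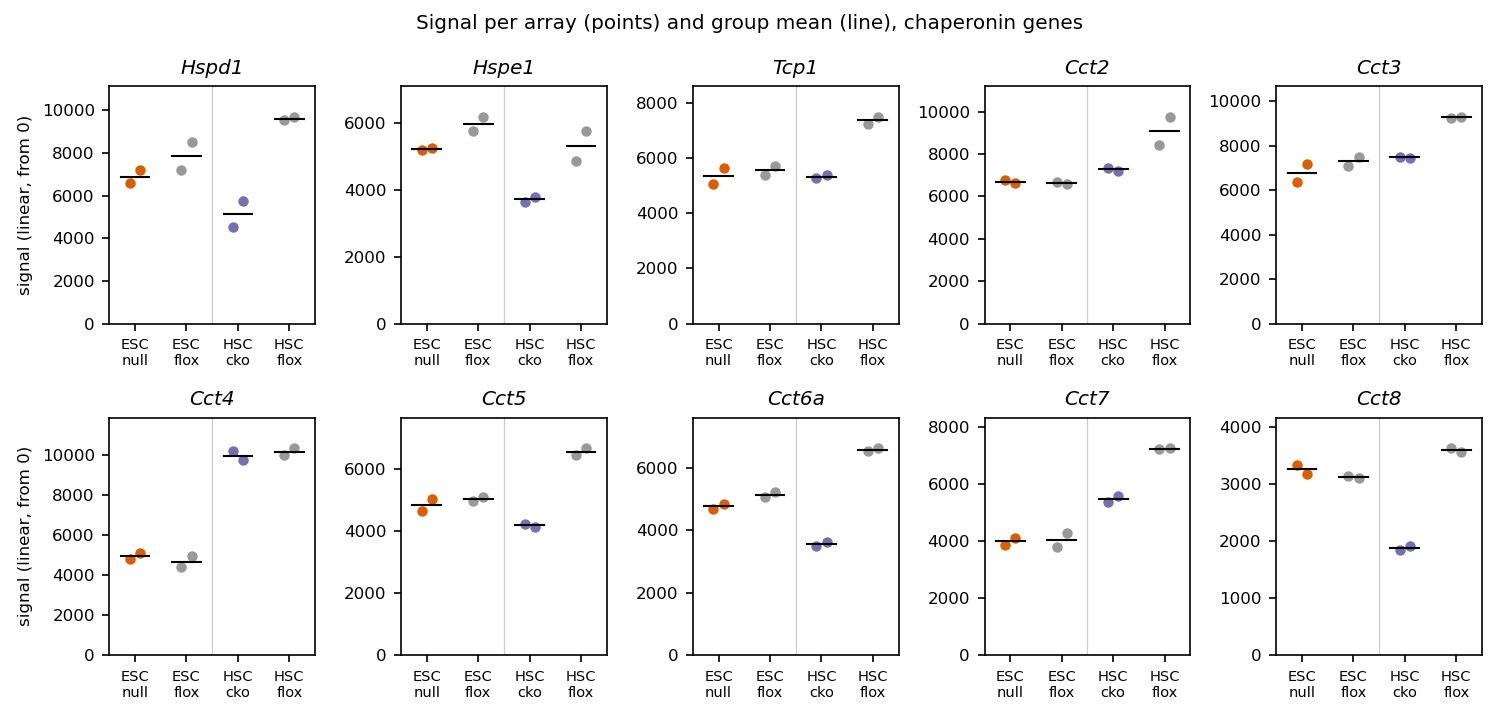
Signal on each array (points, linear axis from 0) and group mean (line) for the mitochondrial chaperonin genes Hspd1 and Hspe1 and for 8 CCT subunits, with Zfx-null or Zfx-cko in colour and Zfx-flox in grey. In HSC every gene shown except Cct4 has its Zfx-cko arrays below its Zfx-flox arrays, and in ESC no gene shown passed the test.

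Of the HSP90 system, Ahsa1, which activates the HSP90 ATPase, read 2514 and 2706 in Zfx-cko HSC and 4023 and 3838 in Zfx-flox HSC (−0.59 ± 0.07, adjusted p = 0.00025). Stip1 read 225 and 253 against 367 and 353 (−0.57 ± 0.08, adjusted p = 0.00048). Hsp90aa1, the inducible HSP90, read 7666 and 7622 against 8823 and 8727 and did not pass at −0.20 ± 0.10 (adjusted p = 0.15). Its arrays were separate, and its probe sets 1426645_at (−0.45), 1437497_a_at (−0.23) and 1441827_x_at (−0.68) passed as lower. Hsf2, a heat shock factor, read 65.4 and 52.5 against 46.7 and 40.8, and its change of 0.33 ± 0.22 did not pass.

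The J-domain genes were called in both directions. In the DNAJA family 3 of 4 tested genes fell in HSC, in the DNAJB family 3 fell and 2 rose of 10, and in the DNAJC family 8 fell and 4 rose of 25. The DNAJB and DNAJC counts lie near the 42.4% of all genes called in either direction, where 19.8% were lower and 22.6% higher. Dnajb1, the main heat-inducible partner of HSP70, read 3108 and 3188 on the Zfx-cko arrays and 4282 and 4226 on the Zfx-flox arrays (−0.43 ± 0.07, adjusted p = 0.0012), and its other probe set changed by −0.48. Dnaja2, a cytosolic HSP70 partner, fell by 0.36 ± 0.06, with 1417183_at lower (−0.70) and the dim 1457233_at higher (0.67), and not with the mean of its probe sets (−0.07). Dnaja4 fell by 0.82 ± 0.20 and Dnaja1 by 0.25 ± 0.07. The Dnaja4 call ended without Zfx-cko array 1 or Zfx-flox array 1, at −0.68 to −0.72, and the Dnaja1 call without any one of the 4 HSC arrays, at −0.24 to −0.25. Dnaja3, a mitochondrial member, was at −0.60 ± 0.31 and did not pass.

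The steepest falls among the DNAJC genes were those of Dnajc21, which acts in ribosome biogenesis, at 274 and 234 in Zfx-cko HSC against 522 and 532 in Zfx-flox HSC (−1.02 ± 0.10, adjusted p = 7.3e-05), and of Dnajc11 of the mitochondrial outer membrane, at 178 and 140 against 301 and 291 (−0.85 ± 0.14, adjusted p = 0.0014). Both calls ended with the mean of the gene's probe sets, at −0.33 for Dnajc21 and −0.28 for Dnajc11. Dnajc2, the J protein of the ribosome-associated complex, fell by 0.46 ± 0.08 (not with that mean, at −0.26), and Dnajc15, which sits at the mitochondrial import channel, by 0.44 ± 0.08. Dnajc13, an endosomal protein, fell by 0.37 ± 0.07 on its main probe set, while the dimmer 1445337_at rose by 1.13. When its probe sets were averaged, the Dnajc13 change turned to 0.38. Dnajc24, Dnajc25 and the auxilin gene Dnajc6 fell by 0.44, 0.50 and 0.32. Each of these last calls ended without at least 2 of the HSC arrays taken singly: Dnajc24 without Zfx-cko 2 or either Zfx-flox array (−0.22 to −0.45), Dnajc25 without Zfx-cko 1 or Zfx-flox 1 (−0.38 to −0.43), and Dnajc6 without any of them (−0.31 to −0.32). With the mean of its probe sets Dnajc6 was at 0.18, and its probe set 1438896_at rose by 0.73. Dnajb3 and Dnajb6 fell by 0.98 and 0.25, and both calls ended without any one of the 4 HSC arrays, at −0.89 to −1.07 and −0.22 to −0.28. The Dnajb3 call also ended without either ESC Zfx-null array.

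Of the 7 members that rose in Zfx-cko HSC, 6 were J-domain genes. They were 2 of 10 tested DNAJB genes and 4 of 25 tested DNAJC genes, with 0 of 4 DNAJA genes. Of all genes tested, 22.6% were higher. Dnajc22 read 44.6 and 41.9 on the Zfx-cko arrays and 8.93 and 23.2 on the Zfx-flox arrays (0.96 ± 0.27, adjusted p = 0.021). Dnajc28 read 236 and 190 against 149 and 91.5 (0.79 ± 0.22, adjusted p = 0.021), and Dnajb12, of the endoplasmic reticulum membrane, 76.5 and 86.0 against 53.8 and 40.5 (0.65 ± 0.15, adjusted p = 0.0097). The groups did not overlap for these 3 genes. Dnajc14, Dnajc1 and Dnajb4 rose by 0.51, 0.41 and 0.37, and the small heat shock protein Hspb8 by 0.47. All of these calls except that of Dnajb4 ended when 1 array was left out. Dnajc22 stood at 0.62 to 1.00 without either Zfx-cko array or Zfx-flox 1, Dnajc28 at 0.48 to 0.64 without Zfx-cko 1 or Zfx-flox 2, and Dnajb12 at 0.49 to 0.57 without Zfx-cko 2 or Zfx-flox 2. Dnajc1 stood at 0.22 to 0.31 without Zfx-cko 2 or Zfx-flox 2, Dnajc14 at 0.38 without Zfx-flox 1, and Hspb8 at 0.31 to 0.53 without any of 7 arrays, all but Zfx-flox 1 of HSC. With the mean of probe sets the calls of Dnajc28 (0.47), Dnajc14 (0.16) and Dnajc1 (0.28) ended too. The number of members called higher was 4 without Zfx-cko array 1, 3 without Zfx-cko array 2 and 4 without Zfx-flox array 2. Dnajb4 is read both ways, since its probe set 1431734_a_at changed by −0.55, and with the mean of its probe sets it stood at −0.11.

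Among the small heat shock proteins, 3 of 5 tested genes fell in HSC and 1 rose, against 19.8% and 22.6% of all genes tested. Hspb6 read 67.8 and 57.3 in Zfx-cko HSC against 111 and 117 in Zfx-flox HSC (−0.74 ± 0.22, adjusted p = 0.023), a call that ended without any one of the 4 HSC arrays (−0.65 to −0.84). Hspb1 (HSP27) read 181 and 116 against 192 and 268 (−0.60 ± 0.19, adjusted p = 0.033), and its call ended without any ESC array, Zfx-cko 2 or Zfx-flox 2 (−0.31 to −0.60). Hspb11, which despite its name belongs to the intraflagellar transport machinery, fell by 0.29 ± 0.08, and not without either Zfx-cko array or Zfx-flox 1 (−0.24 to −0.31), nor with the mean of its probe sets (−0.34). Hspb2 did not pass at 0.03. Among the HSP110 and chaperonin genes lower in HSC, only the Cct2 call ended when 1 array was left out.

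Of the 38 members called lower in HSC, 22 had another tested probe set, and in 15 of these at least 1 other passed in the same direction. Dnaja2, Dnajc13 and Dnajc6 had another that passed in the opposite direction.

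Markers of several cell types differed between the HSC groups. The 4 stem and progenitor markers tested were all higher in Zfx-cko HSC (Flt3 by 2.44, Meis1 by 2.42, Cd34 by 1.62 and Kit by 0.31), and the 2 erythroid markers tested were lower. Klf1, an erythroid factor, fell by 2.52 and Epor by 1.32, and the erythroid markers summed to 453 and 451 in Zfx-cko HSC against 2186 and 2282 in Zfx-flox HSC. Of the mast cell and megakaryocyte markers 3 of 4 rose (summed signal 6494 and 6705 against 2459 and 2435). The 2 genes tested from the lymphoid list, Ptprc and Il7r, rose as well, and the list summed to 3562 and 3590 against 1866 and 1855. Nearly all of that sum was Ptprc (3355 and 3398 against 1754 and 1765), so it says little about lymphoid cells. Il7r read 169 and 160 against 78.9 and 71.6, and the lineage-defining Cd3e and Cd79a lay at 5.39 to 29.6 on the HSC arrays. None of the 3 granulocyte and monocyte markers tested passed (11498 and 10813 against 9268 and 9121). The log2 ratio of 5′ to 3′ signal for the Gapdh control was −4.68 and −4.39 in Zfx-cko HSC and −4.18 and −4.25 in Zfx-flox HSC, without overlap. For Actb it was −3.60 and −3.44 against −3.46 and −3.30, and the groups overlapped. On the ESC arrays the ratio was 0.38 to 0.44 for Gapdh and −0.46 to −0.29 for Actb, so 5′ signal was far weaker in HSC. The part of the marker and 5′ to 3′ differences between the HSC groups in the falls of the chaperone genes was not tested. In bulk samples, fewer cells of a type and less RNA per cell cannot be told apart.

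In Zfx-null ESC the members that changed were spread over the families. Dnajb4 read 445 and 494 on the Zfx-null arrays and 151 and 155 on the Zfx-flox arrays (1.53 ± 0.08, adjusted p = 2.5e-05), and its probe set 1431734_a_at rose by 1.19. Bag2 read 733 and 792 against 248 and 276 (1.49 ± 0.10, adjusted p = 4.2e-05). Hspa4l read 296 and 290 against 88.4 and 105 (1.47 ± 0.11, adjusted p = 7.9e-05), and all 4 of its other probe sets passed as higher, at 1.01 to 1.44. These 3 genes come from 3 families, and each was more than 2-fold brighter on every Zfx-null array than on either Zfx-flox array.

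The small heat shock proteins Hspb2 and Hspb8 rose as well. Hspb2, abundant in muscle, read 356 and 334 in Zfx-null ESC against 151 and 134 in Zfx-flox ESC (1.20 ± 0.15, adjusted p = 0.00070), and Hspb8 read 384 and 384 against 196 and 208 (0.88 ± 0.17, adjusted p = 0.0049). Bag1 read 1392 and 1280 against 940 and 1012 (0.45 ± 0.07, adjusted p = 0.0021). Hspa2 and Dnajc16 rose by 0.59 and 0.37, and their calls ended without single arrays: Hspa2 without Zfx-flox 2 or Zfx-null 2 (0.50 to 0.54), Dnajc16 without any array but ESC Zfx-flox 1 (0.27 to 0.37). Another choice of probe set, by the highest linear mean, put Dnajc16 at −0.027.

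Hspa1a was the member with the lowest change in ESC, at 51.3 and 53.4 on the Zfx-null arrays against 108 and 136 on the Zfx-flox arrays (−1.02 ± 0.18, adjusted p = 0.0034). Hspa1b read 372 and 308 against 285 and 346 and did not pass (0.10 ± 0.12, adjusted p = 0.57), so the near-identical copies were read differently in ESC. Hsph1 fell by 0.32 ± 0.06 (adjusted p = 0.0063), at 1091 and 1185 against 1403 and 1444. Dnajc6, Dnajc21, Bag4, Hspb11 and Dnajc15 fell by 0.50, 0.43, 0.32, 0.28 and 0.27, and these 5 calls ended without single arrays: Dnajc6 without Zfx-flox 1 (−0.41), Dnajc21 without Zfx-flox 1 or Zfx-null 1 (−0.37), Bag4 without any ESC array or HSC Zfx-flox 2 (−0.25 to −0.39), Hspb11 without any of the 8 (−0.25 to −0.30) and Dnajc15 without any ESC array (−0.27). With the mean of probe sets the ESC calls of Dnajc6 (−0.46), Dnajc21 (−0.23), Bag4 (−0.20), Hspb11 (−0.15) and Dnajc16 (0.17) ended too. The number called lower was 3 without Zfx-flox array 1 and 4 without Zfx-flox array 2 or Zfx-null array 2.

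None of the 9 CCT genes, 4 DNAJA genes, 3 genes of the HSP90 system or 2 mitochondrial chaperonin genes tested in ESC passed in limma's test. Of all genes tested in ESC, 30.6% were called in either direction, and with so few genes the share of a family is coarse. At an unadjusted p under 0.05 there were 2 DNAJA genes (Dnaja1 and Dnaja4), 1 mitochondrial chaperonin gene (Hspe1), 0 CCT genes and 0 genes of the HSP90 system. The share of all genes at that unadjusted threshold is not given here. Some of these genes passed under an alternative. With quantile normalization within each cell type Dnaja1, Dnaja2 and Cct4 passed as higher. With the mean of probe sets Dnaja4 passed as higher and Cct6a as lower, and with the replicate number as a block Dnaja1 passed as higher and Hspe1 as lower. Tcp1 read 5079 and 5630 in Zfx-null ESC against 5403 and 5711 in Zfx-flox ESC (−0.05 ± 0.07, adjusted p = 0.58), and Hspd1 read 6585 and 7182 against 7207 and 8508 (−0.19 ± 0.12, adjusted p = 0.28). The groups overlapped for Tcp1, and for Hspd1 the higher Zfx-null array lay just below the lower Zfx-flox array. Dnajb1 (0.08), Hspa8 (−0.15), Hspb1 (−0.22), Bag3 (0.25) and Hsf2 (−0.04) did not pass either. Markers of fibroblasts and stroma moved with the ESC groups: Col1a1, Col1a2, Col3a1 and Lox rose and Thy1 did not pass. The 5 summed to 22409 and 23592 in Zfx-null ESC against 12009 and 12327 in Zfx-flox ESC. Of the pluripotency markers Pou5f1 and Nanog fell, and Sox2, Zfp42 and Esrrb did not pass. The part of these markers in the changes of the chaperone genes was not tested.

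**Figure D4:**
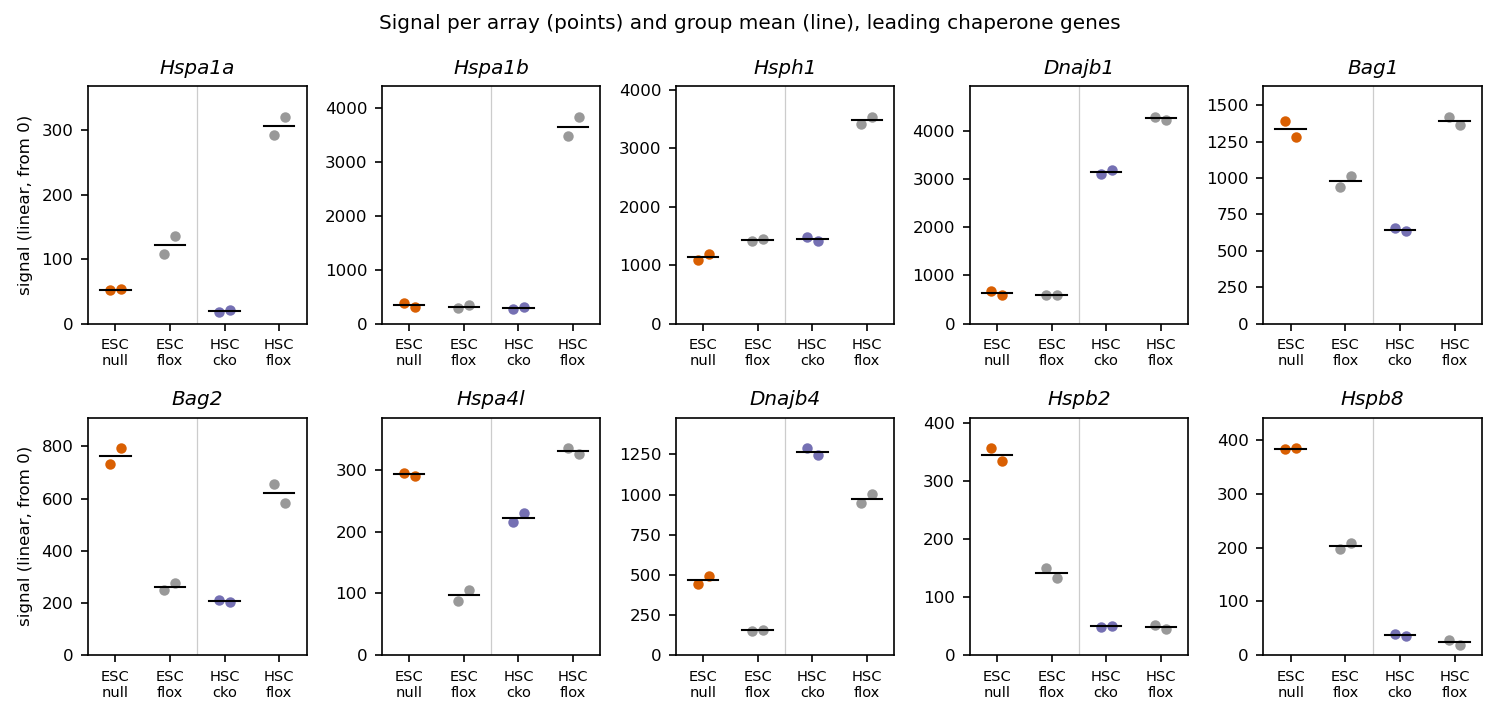
Signal on each array (points, linear axis from 0) and group mean (line) for 10 members, with Zfx-null or Zfx-cko in colour and Zfx-flox in grey. Hspa1a, Hspa1b, Hsph1, Dnajb1, Bag1, Bag2 and Hspa4l were lower in Zfx-cko HSC than in Zfx-flox HSC, while Bag1, Bag2, Hspa4l, Dnajb4, Hspb2 and Hspb8 were higher in Zfx-null ESC than in Zfx-flox ESC.

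The change in HSC was then set against the change in ESC, as the difference of the 2 changes in the same fit. It was lower in HSC for 28 of the 72 members tested in both and higher for 3, against 17.7% and 17.6% of all 11175 genes tested in both. The median difference was −0.36, against 0.03 for all genes. For Bag1, Bag2 and Hspa4l the calls themselves were opposite, with rises in Zfx-null ESC and falls in Zfx-cko HSC, and the differences were −1.54 ± 0.10, −3.00 ± 0.14 and −2.01 ± 0.16 (adjusted p = 2.9e-05, 8.7e-06 and 6.6e-05). Calls went the same way for 8 members: Dnajb4 and Hspb8 rose in both, and Hspa1a, Hsph1, Dnajc21, Dnajc6, Dnajc15 and Hspb11 fell in both. For all of these but Hspa1a and Hsph1, a call in at least 1 cell type ended without a single array or with the mean of probe sets. Even among the 8 the fall was greater in HSC for Hspa1a (difference −2.22 ± 0.25), Hsph1 (−0.93 ± 0.09) and Dnajc21 (−0.59 ± 0.14), and the rise of Dnajb4 was greater in ESC (−1.16 ± 0.11). A further 28 members passed as lower in HSC without passing in ESC, and for 20 of them the difference passed. In 24 members neither change passed. Of all genes tested, 42.4% were called in HSC and 30.6% in ESC. The shares of all genes with these combined patterns were not computed, so the pattern counts describe the members alone. Without HSC Zfx-cko array 2 the median difference was −0.26, and with either HSC Zfx-cko array left out, 1 member was called higher.

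**Figure D5:**
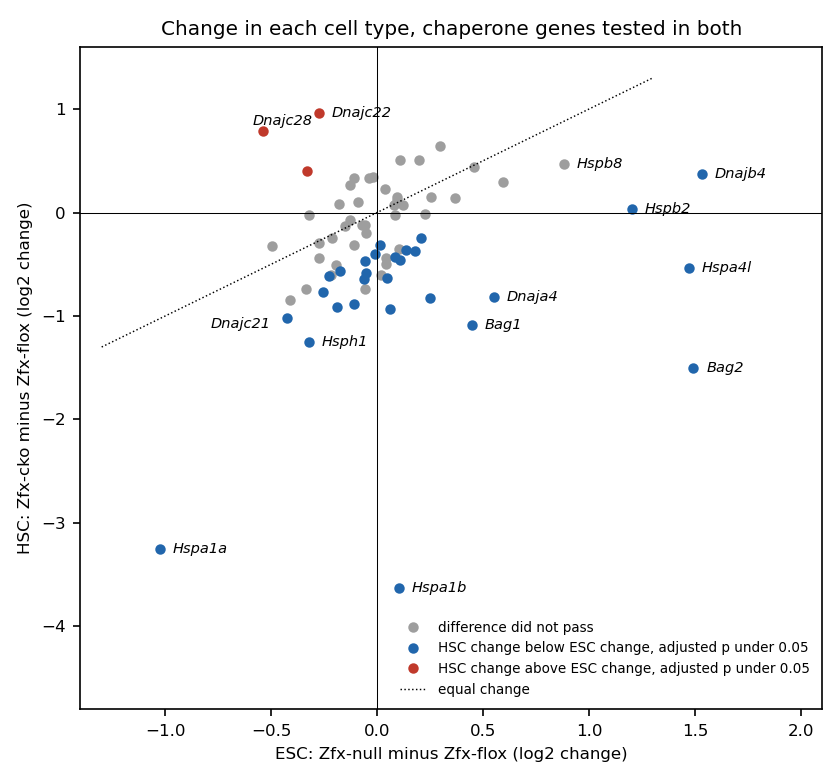
Log2 change in HSC (vertical axis, Zfx-cko minus Zfx-flox) against log2 change in ESC (horizontal axis, Zfx-null minus Zfx-flox) for the 72 members tested in both. The dotted line marks equal change, and blue and red points are members whose HSC change was below (28) or above (3) the ESC change at an adjusted p under 0.05.

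Levels in the Zfx-flox groups are set side by side as a description only, since amplification differed. Of the 72 members tested in both, 17 were at least 2-fold higher in HSC Zfx-flox than in ESC Zfx-flox (23.6%, against 18.4% of all genes) and 10 at least 2-fold lower (13.9%, against 23.0%). Hspa1b (log2 difference 3.48), Dnajc6 (3.26), Dnajb1 (2.82) and Dnajb4 (2.57) were the highest in HSC, and Hspb1 (−4.73) and Hspb8 (−2.53) the lowest. Hspb1 read 5386 and 5624 in Zfx-null ESC and 6301 and 6488 in Zfx-flox ESC, against 116 to 268 on the HSC arrays.

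A list of 50 further chaperone genes on the array was read beside the members: HSP90 cochaperones, prefoldins and chaperonin helpers, exchange factors, mitochondrial chaperones and proteases, and genes linked to heat shock factors. In Zfx-cko HSC 22 of 46 tested genes were lower and 5 higher, with a median change of −0.29. In Zfx-null ESC 9 of 50 were lower and 5 higher, with a median of −0.07, near the 14.9% and 15.7% of all genes. In HSC the shares of all genes were 19.8% lower and 22.6% higher. The count of lower genes in ESC was 5 without Zfx-flox 1, Zfx-null 1 or Zfx-null 2, and that of higher genes 3 without Zfx-null 1.

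Of the 9 tested genes linked to heat shock factors, 3 were lower and 1 was higher in HSC, with a median change of 0.009. Of the mitochondrial chaperones and proteases, 7 of 8 were lower in HSC. Clpx, the unfoldase of the matrix protease, read 142 and 146 in Zfx-cko HSC against 420 and 399 in Zfx-flox HSC (−1.42), and Htra2, an intermembrane protease, 753 and 756 against 1756 and 1811 (−1.23). The eighth, Trap1, is the mitochondrial HSP90, was named after its values were seen, and did not pass at −0.17. Outside mitochondria, the segregase Vcp fell by 1.02, the HSP90 cochaperone Fkbp4 by 0.98 and Aarsd1 by 0.95, while the deacetylase Hdac6 and the prefoldin subunit Pfdn5 rose by 1.18 and 0.79. Stub1, the ubiquitin ligase that Bag2 inhibits, rose by 0.45, at 735 and 798 against 530 and 584. In Zfx-null ESC the small heat shock protein Cryab read 1788 and 1763 against 469 and 478 (1.88), and the collagen chaperone Serpinh1 3605 and 3351 against 1645 and 1553 (1.11). Lonp1 and Clpp, both mitochondrial proteases, fell by 0.54 and 0.40 in ESC, and by 0.67 and 0.44 in HSC.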

How the data were processed

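The 8 samples were total RNA on Affymetrix Mouse Genome 430 2.0 arrays. The authors deposited probe set intensities, which the submitters' processing notes credit to GCOS 1.4, with no summarisation settings. From these deposited intensities, log2(value + 14.2) was computed, 14.2 being the 25th percentile of all values. This scale understates changes of dim genes. Every deposited array had a trimmed mean of 250, and this scaling was kept. The signal over background and the number of arrays limit the precision, and the fit's standard error for a tested member had a median of 0.106 (log2) in both cell types.

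Gene symbols came from the platform annotation, without the 64 control probe sets. For 45037 probe sets, limma 3.58.1 (R 4.3.3) fitted the 4 group means, with a variance trend in eBayes and 4 residual degrees of freedom. A gene was tested in a cell type if its mean there reached the 40th percentile, and Benjamini-Hochberg adjustment ran over all genes tested. The fit was also run on simulated data with independent normal residuals, and no result here rests on that run. Such residuals cannot show what happens if duplicates share the same RNA. Replicate numbers are not said to mark a shared batch. Deviations of same-numbered arrays correlated at 0.34 in ESC and 0.08 in HSC, which, with 2 pairs of groups, is not taken as a pairing.

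Any member could be named, the leading ones with full values, with up to 5 further chaperone genes a direction and all markers. The members and lists were chosen with earlier results of these data known. Alternatives changed the pseudocount, scaling, filter, probe set rule, fit and arrays. Promoters are RefSeq's (GRCm38.p6), and 69 of 84 members matched.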

Additional observations from a re-analysis of the deposited data

Results flagged for a closer look

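For 31 of the 72 members tested in both cell types, the log2 change in HSC (Zfx-cko minus Zfx-flox) differed from that in ESC (Zfx-null minus Zfx-flox) by limma's test of the difference itself. The differences below are HSC change minus ESC change.

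Among HSP70 and HSP110 genes the difference was −3.73 for Hspa1b, −2.22 for Hspa1a, −0.52 for Hspa9 and −0.39 for Hspa14, and −2.01 for Hspa4l, −0.93 for Hsph1 and −0.68 for Hspa4. The BAG genes Bag2, Bag1 and Bag3 differed by −3.00, −1.54 and −1.08. In these 3 the HSC change was negative and the ESC change positive, although that of Bag3 in ESC did not pass. Of the J-domain genes, Dnaja4 differed by −1.37, Dnajb4 by −1.16, Dnajc21 by −0.59, Dnajc2 by −0.57, Dnajc13 by −0.55, Dnajb1 by −0.52, Dnaja2 by −0.50 and Dnaja1 by −0.45. Dnajc28, Dnajc22 and Dnajc1 differed the other way, by 1.32, 1.24 and 0.74.

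The chaperonin genes differed by −0.99 for Cct8, −0.78 for Cct6a, −0.73 for Hspd1, −0.58 for Cct5, −0.41 for Tcp1, −0.39 for Cct7 and −0.33 for Cct2. In the HSP90 system the difference was −0.54 for Ahsa1 and −0.39 for Stip1, and among small heat shock proteins it was −1.17 for Hspb2.

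Of these 31 calls, 8 ended when 1 array was left out. Cct2 stood at −0.22 to −0.34 without any array but HSC Zfx-flox 1, and Cct7 at −0.35 to −0.39 without ESC Zfx-null 2, HSC Zfx-cko 1 or either HSC Zfx-flox array. Hspa14 and Hspa9 stood at −0.29 to −0.40 and −0.36 to −0.53 without ESC Zfx-flox 2, ESC Zfx-null 1 or any HSC array. Stip1 stood at −0.31 to −0.40 without ESC Zfx-flox 2, either ESC Zfx-null array, HSC Zfx-cko 1 or HSC Zfx-flox 1. Dnajc22 stood at 0.89 to 1.27 without any array but ESC Zfx-flox 1 and HSC Zfx-flox 2, Dnajc28 at 1.18 without HSC Zfx-cko 1, and Dnajc1 at 0.64 without HSC Zfx-cko 2. With the mean of all probe sets of a gene, the calls of Cct8 (−0.30), Ahsa1 (−0.16), Dnajc2 (−0.27), Dnajc21 (−0.09), Hspa4 (−0.08), Dnaja2 (−0.05), Hspa14 (−0.45), Dnajc28 (0.58) and Dnajc1 (0.54) ended, and Dnajc13 turned to 0.37. RNA of the cell types was amplified over different numbers of rounds, and the part of this in the differences was not tested.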

How the results depend on the processing

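Of the calls among members, 19 of 45 in HSC, 7 of 15 in ESC and 12 of 31 of the difference between cell types kept their direction and stayed past the threshold under every alternative that gave a value. The HSC ones include Hspa1a, Hspa1b, Hsph1, Bag1, Bag2, Bag3, Hspa4l, Hspd1 and Hspe1. Members that did not pass gained a call in the direction of the main fit under at least 1 alternative. This held in 13 of 29 cases in HSC, 17 of 59 in ESC and 13 of 41 for the difference. With the mean of all probe sets of a gene, signs turned for Dnajb4 in HSC (−0.11), Dnajc13 in HSC (0.38) and in the difference (0.37), and Dnajc6 in HSC (0.18), and outside the members for Hsbp1 in ESC (0.19) and Pfdn5 in the difference (−0.030). With the highest linear mean, Dnajc16 in ESC was at −0.027. The Hspa8 difference did not pass in the main fit. With quantile normalization of each cell type its sign turned and it passed, at −0.24 (limma adjusted p = 0.012). With that of all arrays it passed at −0.23 (limma adjusted p = 0.018). These turned calls are not among the 13 gained for the difference.

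Counts and medians moved as follows. Members lower in ESC numbered 12 with quantile normalization over all arrays (16.3% of all genes then), 4 with median centring and 1 without a variance trend. Members higher in HSC numbered 4 with median centring, 4 with a filter at the 60th percentile and 2 with the mean of probe sets, and the HSC median was −0.42 with median centring. For the difference, the median was −0.48 with median centring and −0.23 with the mean of probe sets, 14 members were lower without a trend, and 0 and 1 were higher with the mean of probe sets and without a trend. Median centring also moved the split of all genes for the difference to 1197 higher and 2066 lower, against 1968 and 1977. For the 50 further chaperone genes, those higher in ESC numbered 3 with the arrays of ESC alone and those lower 3 without a trend. In HSC their median was −0.39 with median centring, and 3 were higher with median centring or the mean of probe sets. Their median difference was −0.36 with median centring, and 6 were lower without a trend. The causes were not tested. With the replicate number as a block, which the labels do not describe as a pairing, 15 members were lower in ESC, against 18.1% of all genes. Over the 3 comparisons, calls of members ended most often without a variance trend (33 of 91) and with the mean of probe sets (27 of the 86 with a value).

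With 1 array left out at a time, the lone array of its group was assumed to vary like the other groups. The members' ESC median ranged over −0.07 to 0.02, with 6 to 8 higher and 3 to 7 lower. Their HSC median ranged over −0.32 to −0.29, with 3 to 7 higher and 29 to 38 lower, and their difference over −0.35 to −0.26, with 1 to 3 higher and 24 to 27 lower. For the further genes, the ESC median ranged over −0.14 to −0.02, with 3 to 5 higher and 5 to 10 lower. The HSC median was −0.30 to −0.26, with 4 to 5 higher and 18 to 23 lower, and the difference −0.28 to −0.14 (−0.14 without HSC Zfx-cko 2), with 2 to 3 higher and 10 to 15 lower (10 without HSC Zfx-flox 2). Signal near background limits the dim members most.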

Other observations

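In 24 members tested in both cell types neither change passed, 12 of them among the 25 DNAJC genes tested. The share of all genes with neither call was not computed. Dnajc9, a histone chaperone in human cells, read 4152 and 4267 in Zfx-cko HSC and 4106 and 3906 in Zfx-flox HSC, a log2 change of 0.07. Dnajc8, a splicing-associated J protein, read 5771 and 5449 in Zfx-cko HSC and 5819 and 5940 in Zfx-flox HSC, a log2 change of −0.07.

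Among members dim in at least 1 cell type, Dnajc5g, a testis-enriched relative of the synaptic Dnajc5, read 4.60 and 4.55 in Zfx-null ESC and 20.5 and 35.6 in Zfx-flox ESC and was not tested. Cct6b read 29.1 and 46.8 in Zfx-null ESC against 63.6 and 47.2 in Zfx-flox ESC and did not pass. Hspb3 read 19.9 and 14.0 in Zfx-cko HSC against 6.62 and 3.55 in Zfx-flox HSC and was not tested.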
